A study of Rattus norvegicus with 6 samples.

Results

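Glucose sensing and KATP channel genes were examined in INS-1 cells, an insulin-secreting rat insulinoma line, that overexpressed 1 of 2 menin mutants. The group was given as 7 names, Slc2a2, G6pc2, Abcc8, Kcnj11, Trpm4, Trpm5 and Ucn3, and members were the rows whose symbol equalled a name, which gave 6 of the 35362 rows of the deposited table. No row carried the symbol G6pc2. S487D cells overexpressed Flag-tagged menin in which the serine was replaced by aspartate, an acidic residue often used to stand for phosphoserine, and S487A cells the same protein with alanine, which cannot be phosphorylated. Each mutant was delivered by transduction with a pMX-puro retrovirus, cells were at passages 75 to 80, and the culture conditions were the same for both. Each mutant had 3 libraries of mRNA. The study concerns menin phosphorylation downstream of GLP-1, a gut hormone that raises insulin secretion. Untransduced cells and cells given wild-type menin were not analysed here, and each direction is that of S487D relative to S487A. Nothing in the labels ties the libraries of a mutant to separate cultures. The p-values therefore measure spread that may be technical, and an effect of the mutant cannot be told apart from one of the transduced population.

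In a beta cell, glucose enters through a facilitative transporter and is phosphorylated. The ATP made from it closes the KATP channel, which is built of Kir6.2 pore subunits and SUR1 regulatory subunits in equal number. The membrane then depolarizes, voltage-gated calcium channels open and insulin granules are released. Slc2a2 encodes the transporter GLUT2, G6pc2 an islet glucose-6-phosphatase that opposes this phosphorylation, Kcnj11 Kir6.2 and Abcc8 SUR1. Trpm4 and Trpm5 encode calcium-activated cation channels that add to depolarization, and Ucn3 encodes urocortin 3, a peptide of mature beta cells that acts on neighbouring delta cells.

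Slc2a2 was the single member that was higher in S487D. A promoter was to be shown for each member that passed the test, in either direction, where one was held. The RefSeq tables used here held a promoter for 1 of the 3 members that passed the test; Abcc8 and Kcnj11 were not in that table. The window covers 250 bases before the transcript start and 50 after it on the plus strand of chr2:113540120-113540419 (GRCr8), with the transcribed 50 bases in capitals.
Slc2a2 promoter: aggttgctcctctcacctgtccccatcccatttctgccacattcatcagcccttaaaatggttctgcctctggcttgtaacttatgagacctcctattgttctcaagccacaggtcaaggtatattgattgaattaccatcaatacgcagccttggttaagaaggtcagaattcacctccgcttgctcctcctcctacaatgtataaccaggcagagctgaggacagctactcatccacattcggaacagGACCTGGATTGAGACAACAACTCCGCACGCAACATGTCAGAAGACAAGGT
Searched on both strands, these 300 bases held 0 matches to 6 short motifs. The motifs were GTTAAT (partial HNF1 site, in 7.45% of 33469 RefSeq promoters of the same length), CAGATG (an E-box, 16.6%), TGTTTAC (forkhead, 3.78%), TGCTGAC (partial MAF site, 4.44%), TGACGTCA (cAMP response element, 1.83%) and TAATTA (homeodomain, 5.36%). The result says only that these letters are not in this window.

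Reads assigned to listed genes numbered 9444801 to 10253573 per library in S487D and 10037113 to 10867549 in S487A. Men1, the gene of menin, was read at 112 ± 7.81 RPKM in S487D and 74.3 ± 2.80 in S487A (SD, n = 3 each; log2 change 0.58, limma adjusted p = 2.89e-05). The labels do not name the species of the menin construct, so how these reads divide between transgene and rat gene is unknown, and a difference in menin amount cannot be told apart from the mutation. RPKM are reads scaled for gene length and for the assigned reads of the library, so levels of different genes can be set side by side. Of 7 beta cell markers (Ins1, Ins2, Iapp, Pdx1, Nkx6-1, Mafa and Slc30a8), 7 averaged at least 1 RPKM over the libraries, and their sum was 17457 to 18641 RPKM in S487D and 5095 to 5643 RPKM in S487A. The sum of 5 general endocrine markers (Chga, Chgb, Scg2, Pcsk1 and Pcsk2) was 4840 to 5026 RPKM in S487D and 6498 to 6597 RPKM in S487A. Of other islet cells' markers, Sst of delta cells and Ppy of PP cells were listed at 0 in every library, and of 5 alpha cell markers Gcg alone reached 1 RPKM. The summed level of the alpha cell markers was 783 to 864 RPKM in S487D and 91.8 to 104 RPKM in S487A. Of 3 duct markers Krt7 alone reached 1 RPKM, and their sum was 80.8 to 84.7 RPKM in S487D and 208 to 226 RPKM in S487A. Markers of acinar, fibroblast, endothelial and immune cells stayed below 1 RPKM in each library. The beta, endocrine, alpha and duct sums thus differed between the mutants, but single markers did not all follow their sum. Ins1, at 16700 RPKM in S487D and 4683 RPKM in S487A, made up most of the beta sum. Nkx6-1 was lower in S487D, and the other beta cell markers were higher. Of the endocrine markers, Chgb (log2 change -1.15) and Chga (-0.13) were lower, while Scg2 (0.12), Pcsk1 (0.29) and Pcsk2 (0.98) were higher. The part of these differences in the results below was not tested.

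S487D cells had more Slc2a2 mRNA, by 21.3%, and less mRNA of both KATP channel subunits. Mean RPKM fell by 22.2% for Kcnj11 and fell by 25.9% for Abcc8. Of the 5 members with enough signal to test, 1 rose, 2 fell and 2 did not pass. The test was limma on log2(RPKM + 1) with Benjamini-Hochberg adjustment over 12527 genes and a threshold of 0.05, and log2 changes below are S487D minus S487A on that scale, which understates changes of genes near 1 RPKM. Across all genes tested 44.4% were called, 20.1% higher and 24.3% lower in S487D, and the 3 calls among 5 members are to be read against that share. Groups did not overlap for 3 of the 5 members, against 54.6% of all genes tested. Higher calls made up 45.3% of all calls, 55.4% after quantile normalization, 58.9% after median centring and 51.0% once the most read genes were removed; the calls of the 3 members held in each. In bulk RNA, fewer cells making a transcript and less of it per cell cannot be told apart.

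By level per length the members fell into a high and a low set. Slc2a2 ranked 483 among the 12527 genes tested by mean RPKM over all libraries, Kcnj11 1321 and Abcc8 2354. Trpm4 ranked 11708 and Ucn3 12129, near the bottom, and Trpm5 was below the filter of 1 RPKM in at least 3 libraries. In each of the 6 libraries Slc2a2 stood above Kcnj11 and Kcnj11 above Abcc8. The values of Trpm4 and Ucn3 overlapped, and Trpm5 lay below both in each library. In S487D the low members varied by 26.1 to 33.7% between libraries (coefficient of variation), against 2.18 to 4.70% for the high ones. In S487A the low members varied by 13.6 to 56.5% and the high ones by 0.514 to 3.56%.

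**Figure D1:**
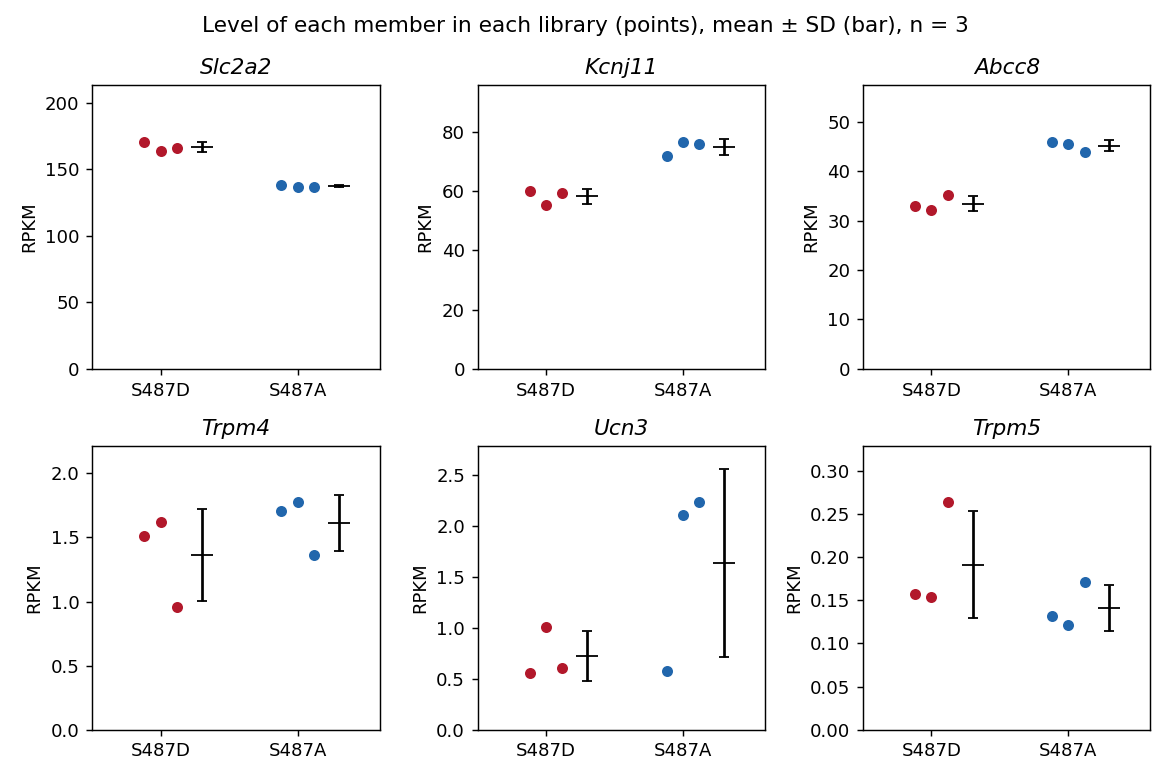
RPKM of each member (vertical axes, linear, from 0) in each S487D (red) and S487A (blue) library, with the mean ± SD beside the points (n = 3). Slc2a2 is higher in each S487D library, Kcnj11 and Abcc8 are lower in each, and the points of Trpm4, Ucn3 and Trpm5 overlap.

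Slc2a2, on chromosome 2 from 114413431 to 114445418 (rn6, plus strand), was read at 171, 164 and 166 RPKM in S487D and at 138, 137 and 137 RPKM in S487A. These stood on 4909, 4370 and 4391 reads in S487D and 3890, 4173 and 3952 in S487A. Each S487D library was above each S487A library. The mean was 167 ± 3.64 RPKM in S487D and 137 ± 0.707 RPKM in S487A (SD, n = 3 each), with a log2 change of 0.28 (SE 0.035, 95% confidence interval 0.20 to 0.36, limma adjusted p = 2.12e-04). The rise was modest in this comparison, since 29.3% of genes tested had a larger change in either direction.

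Other genes of glucose entry and phosphorylation hardly moved. Of 16 listed genes 14 were found and 7 tested, of which 1 was higher, 0 lower and 6 did not pass, with a median log2 change of -0.05, against -0.01 over all genes tested. That median was 0.02 after quantile normalization and 0.01 after median centring. Slc2a1, encoding the widely expressed transporter GLUT1, was at 26.9 ± 2.16 RPKM in S487D and 29.0 ± 2.16 RPKM in S487A (log2 change -0.11, limma adjusted p = 0.251). Slc2a2 RPKM was 6.35, 6.61 and 5.70 times that of Slc2a1 in the S487D libraries and 5.18, 4.43 and 4.65 times in the S487A libraries. The ratio was higher in each S487D library (difference of the log2 ratio 0.38, two-sided exact permutation p = 0.1, the smallest that 3 against 3 libraries allow, and 0.3 adjusted over 3 ratios). Among 6 listed glucose transporter genes, Slc2a2 held 78.8 ± 0.814% of the summed RPKM in S487D and 74.2 ± 0.788% in S487A (SD, n = 3 each).

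Of the high-affinity hexokinase genes, Hk1 had no reads in 5 of the 6 libraries and reached 0.0322 RPKM in the other, and Hk2 stayed at or below 0.0441 RPKM. The called gene of the list was Pfkfb2, a bifunctional enzyme that sets fructose 2,6-bisphosphate, at 34.7 ± 1.71 RPKM in S487D and 31.4 ± 0.867 RPKM in S487A (log2 change 0.14, limma adjusted p = 0.0436). That call was lost in 7 of 16 alternatives, among them when S487D replicate 1 or 3 or any S487A library was left out, with adjusted p up to 0.159.

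G6pc2 could be followed only through its gene ID. RefSeq gives it the ID 681817, and the table held a row LOC681817 on chromosome 3 from 55460056 to 55467121 (rn6). That row had 0, 0 and 1 read in S487D and 0, 0 and 0 reads in S487A. At this depth the floor of 3 reads corresponded to 0.259 to 0.298 RPKM, so the row was not detectable above it in either mutant and no change can be given. The ubiquitous phosphatase G6pc3 was at 27.7 ± 1.23 RPKM in S487D and 27.7 ± 1.23 RPKM in S487A (log2 change -0.00, limma adjusted p = 0.978). Slc37a4, the transporter that brings glucose 6-phosphate into the endoplasmic reticulum, was at 17.8 ± 2.21 RPKM in S487D and 16.6 ± 0.0459 RPKM in S487A (log2 change 0.09, limma adjusted p = 0.392). Without S487D replicate 2 the adjusted p of Slc37a4 was 0.0342 (log2 change 0.18), and over 16 alternatives it ran up to 0.903.

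Kcnj11, the pore subunit gene, lies on chromosome 1 from 102103093 to 102106774 (rn6, minus strand). It was read at 60.0, 55.1 and 59.4 RPKM in S487D and at 71.7, 76.6 and 75.9 RPKM in S487A, on 1685 to 1975 reads in S487D and 2310 to 2673 in S487A. Each S487D library was below each S487A library. The log2 change was -0.36 (SE 0.047, 95% confidence interval -0.46 to -0.25, limma adjusted p = 2.67e-04).

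Abcc8, the regulatory subunit gene and target of sulfonylurea drugs, lies 3661 bases further on, from 102110436 to 102191359 on the same strand. It was read at 33.0, 32.1 and 35.2 RPKM in S487D and at 45.9, 45.5 and 43.8 RPKM in S487A. The groups did not overlap here either (log2 change -0.42, SE 0.047, 95% confidence interval -0.53 to -0.32, limma adjusted p = 8.41e-05). Over the 16 alternatives the adjusted p stayed between 1.30e-09 and 7.38e-04 for Abcc8, and between 7.54e-08 and 0.00202 for Kcnj11. Among genes tested, 15.4% had a larger change than Abcc8 and 20.3% a larger one than Kcnj11, in either direction.

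The ratio of the subunit mRNAs overlapped between the mutants. Abcc8 RPKM was 0.550, 0.582 and 0.592 of Kcnj11 RPKM in S487D and 0.641, 0.594 and 0.577 of it in S487A. The difference in log2 ratio was -0.07 (two-sided exact permutation p = 0.4, also 0.4 adjusted over 3 ratios), so a difference in how far the subunits fell was not shown. The paralogous subunits that form KATP channels in muscle and vessels were near or at 0. Kcnj8, encoding Kir6.1, was listed at 0 in every library. Abcc9, encoding SUR2, was at 0.103, 0.0794 and 0.112 RPKM in S487D and at 0.0151, 0 and 0.0147 RPKM in S487A, levels too low for the main test.

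**Figure D2:**
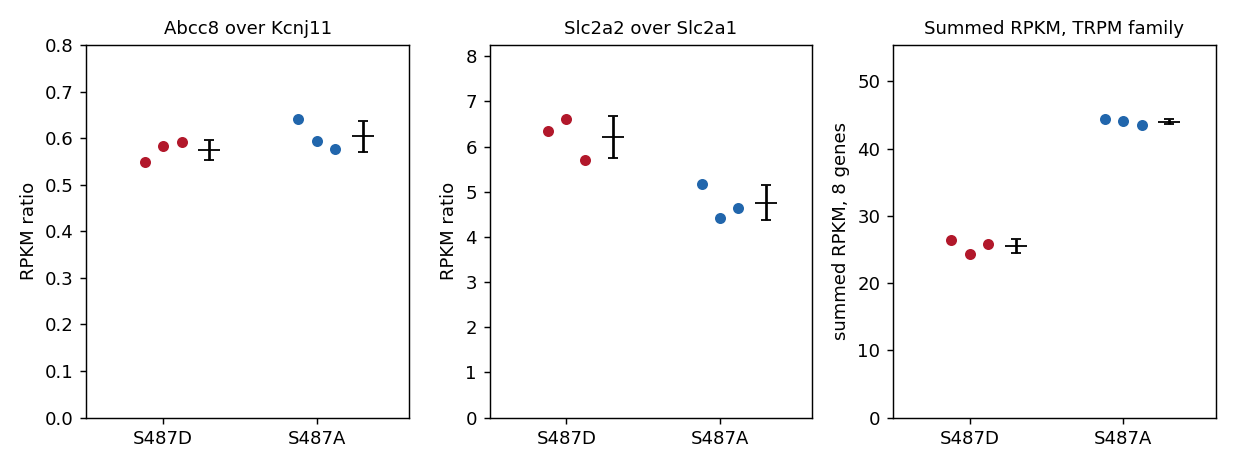
Ratio of Abcc8 to Kcnj11 RPKM, ratio of Slc2a2 to Slc2a1 RPKM, and summed RPKM of the 8 TRPM family genes (vertical axes, linear, from 0) in each S487D (red) and S487A (blue) library, with mean ± SD (n = 3). The first ratio overlaps between mutants, the second is higher in each S487D library and the TRPM sum is lower in each.

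Partners of the KATP channel fell more often than they rose. Of 9 listed genes, 7 were tested, of which 0 were higher, 5 lower and 2 did not pass, with a median log2 change of -0.26. Ckb, a creatine kinase that shuttles high-energy phosphate, fell to 177 ± 2.70 RPKM in S487D, against 337 ± 16.0 RPKM in S487A (log2 change -0.92, limma adjusted p = 2.92e-07). Ak1, an adenylate kinase that interconverts adenine nucleotides, fell to 17.2 ± 0.814 RPKM in S487D, against 27.3 ± 0.877 in S487A (log2 change -0.64). Prkaa2, a catalytic subunit of AMP-activated kinase, was also lower (log2 change -0.33), as were, among genes named after their values were seen, Ank2, encoding the scaffold ankyrin-B (-0.26), and Stx1a, a syntaxin that binds SUR1 (-0.18). The count of lower genes was 4 in 9 of 16 alternatives, quantile normalization and median centring among them, and 5 in the others. Without a filter, 1 gene of the list, Abcc9, was higher. Rapgef4 and Prkaa1, named after their values were seen, did not pass and had log2 changes of -0.07 and -0.08.

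Trpm4, on chromosome 1 from 101293300 to 101323187 (rn6, minus strand), was read at 1.51, 1.62 and 0.957 RPKM in S487D and at 1.71, 1.77 and 1.36 RPKM in S487A. This was 65, 65 and 38 reads in S487D and 72, 81 and 59 in S487A, and the groups overlapped. The log2 change was -0.15 with a 95% confidence interval from -0.44 to 0.13 (limma adjusted p = 0.362), an interval that spans a fall and a rise. Without S487D replicate 3, the lowest library, the change was -0.02.

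Trpm5, from 216256661 to 216281500 on the same chromosome and strand, had 11, 10 and 17 reads in S487D and 9, 9 and 12 in S487A, or 0.157, 0.154 and 0.263 RPKM in S487D and 0.131, 0.121 and 0.171 RPKM in S487A. The groups overlapped. Summed over libraries this gave 38 reads in S487D (exact Poisson 95% interval 26.9 to 52.2) and 30 in S487A (20.2 to 42.8), intervals that cover counting error only. Without the filter on low values its log2 change was 0.06 (limma adjusted p = 0.476). Trpm5 to Trpm4 ratios also overlapped, at 0.104, 0.0946 and 0.275 in S487D and 0.0768, 0.0683 and 0.125 in S487A (two-sided exact permutation p = 0.4).

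Neither gene was the main TRPM transcript of these cells. Trpm2, a channel gated by ADP-ribose, held 53.9 ± 1.56% of the summed RPKM of the 8 family genes in S487D and 60.3 ± 2.06% in S487A, while Trpm4 held 5.36 ± 1.51% in S487D and 3.67 ± 0.472% in S487A. The family sum was 25.5 ± 1.07 RPKM in S487D and 44.0 ± 0.396 RPKM in S487A (SD, n = 3 each). Of 12 other TRP genes listed, 5 were tested and all 5 were lower, with a median log2 change of -0.65. The median was -0.16 over the listed genes with a read when no filter was set, and -0.92 to -0.95 with smaller pseudocounts or voom; with a filter at 5 RPKM 2 of them remained to be tested and were lower. Trpm2 fell to 13.8 ± 0.894 RPKM in S487D, against 26.5 ± 0.693 in S487A (log2 change -0.90, limma adjusted p = 2.11e-06). Trpm3, a channel opened by pregnenolone sulfate, fell to 1.62 ± 0.327 RPKM in S487D, against 4.75 ± 0.133 in S487A (log2 change -1.14). Trpv1, the capsaicin receptor gene, fell to 1.501 ± 0.272 RPKM in S487D, against 2.90 ± 0.191 in S487A. The remaining pair, named after their values were seen, were the channel kinase gene Trpm7 (log2 change -0.33) and Trpc1 (-0.40).

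**Figure D3:**
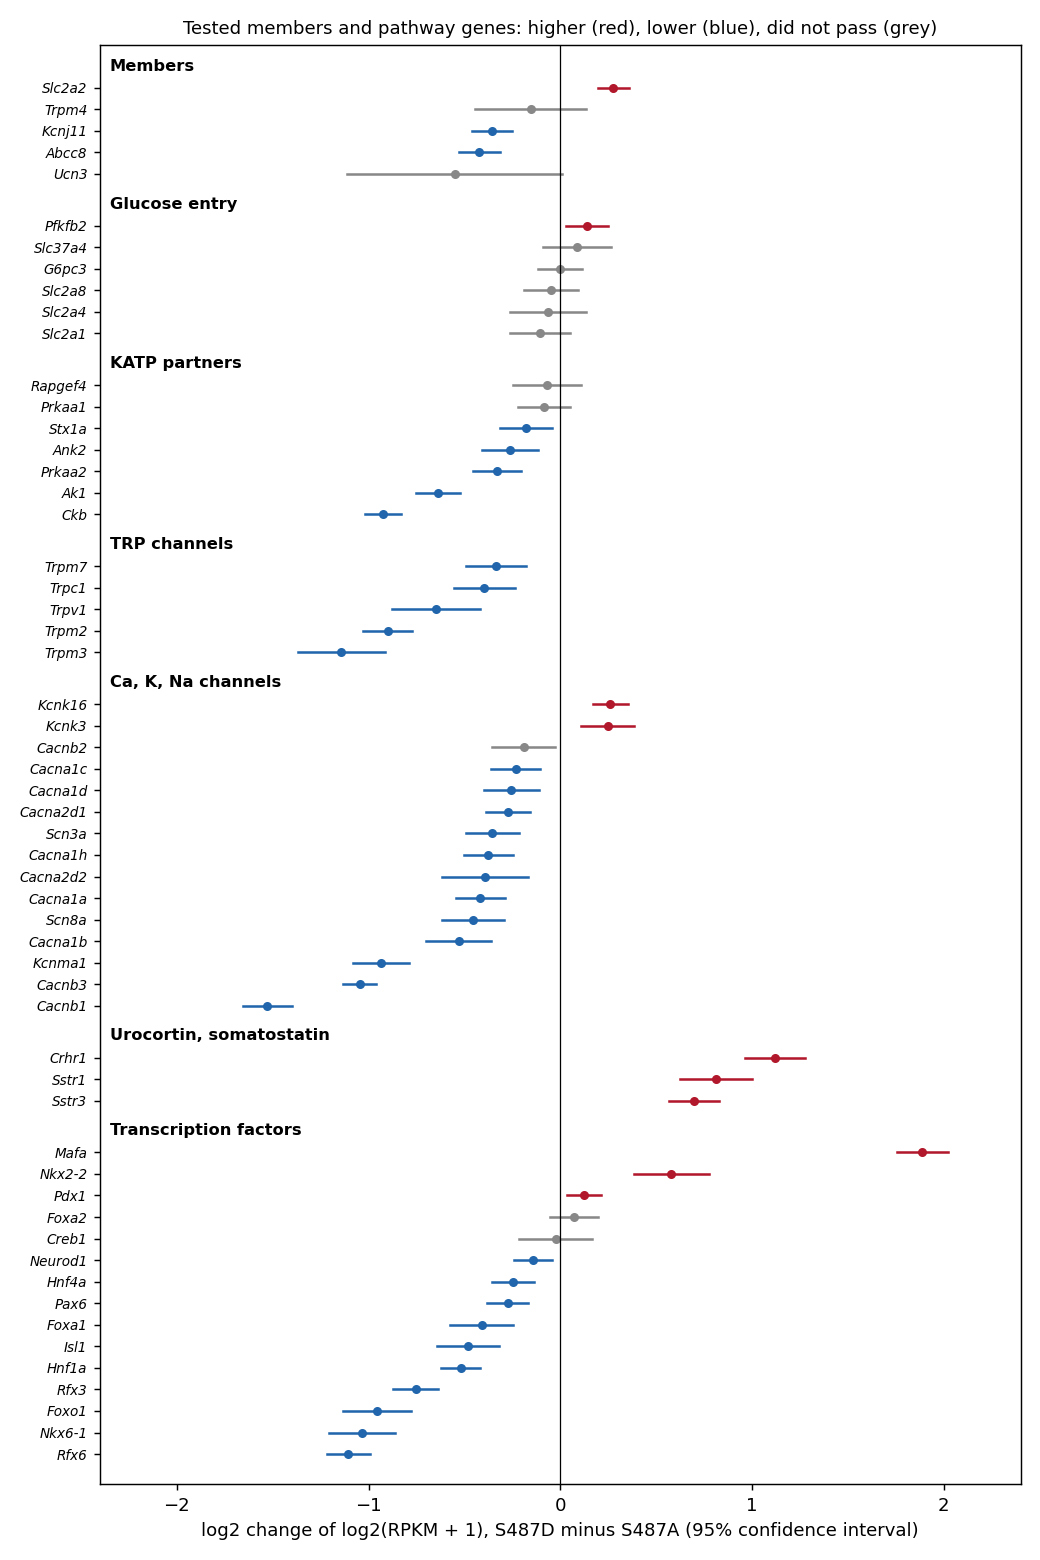
Log2 change of log2(RPKM + 1), S487D minus S487A, with its 95% confidence interval (horizontal axis) for the tested members and tested genes of 6 pathway lists, a few of them not shown (rows). Red marks genes higher in S487D, blue lower and grey those that did not pass; TRP channels and most calcium channel genes lie left of 0, and glucose entry genes lie around it.

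Listed calcium, sodium and other potassium channel genes were mostly lower in S487D. Of 20 listed, 16 were tested, of which 2 were higher, 12 lower and 2 did not pass, with a median log2 change of -0.36. Cacnb3, an auxiliary subunit of voltage-gated calcium channels, fell to 153 ± 3.15 RPKM in S487D, against 316 ± 9.0 in S487A (log2 change -1.04, limma adjusted p = 6.52e-08). Cacnb1, another such subunit, fell to 4.02 ± 0.0805 RPKM in S487D, against 13.5 ± 0.277 in S487A (log2 change -1.53). Kcnma1, the pore of the calcium-activated BK potassium channel, fell to 4.98 ± 0.238 RPKM in S487D, against 10.4 ± 0.570 in S487A. The L-type pore genes of beta cells, named after their values were seen, moved less, with log2 changes of -0.23 for Cacna1c and -0.26 for Cacna1d. Against this direction stood 2 background potassium channels. Kcnk16, encoding the islet channel TALK-1, rose to 182 ± 6.0 RPKM in S487D, against 152 ± 4.19 in S487A (log2 change 0.26, limma adjusted p = 7.01e-04), and Kcnk3, encoding TASK-1, rose with a log2 change of 0.25. Cacnb2, named after its values were seen, did not pass (log2 change -0.19). The number of lower genes was 11 after quantile normalization and 12 after median centring.

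Ucn3, on chromosome 17 from 69960160 to 69966111 (rn6, plus strand), was close to the limit of detection. It had 3, 5 and 3 reads in S487D and 3, 12 and 12 in S487A, which made 0.559, 1.00 and 0.607 RPKM in S487D and 0.571, 2.11 and 2.23 RPKM in S487A. The floor of 3 reads stood at 0.528 to 0.607 RPKM for this gene of 523 bases, so 3 of the 6 libraries were at it. S487A replicate 1 lay within the S487D values, and the other S487A libraries lay above them. Summed reads were 11 in S487D (exact Poisson 95% interval 5.49 to 19.7) and 27 in S487A (17.8 to 39.3). The log2 change was -0.55 (SE 0.249, 95% confidence interval -1.11 to 0.01, limma adjusted p = 0.101) and did not pass. It depended on which S487A libraries were kept. Ucn3 reached 1 RPKM in just 3 libraries, S487D replicate 2 and S487A replicates 2 and 3. The filter was not set anew when a library was left out. Without S487A replicate 1 the change was -0.89 with a limma adjusted p = 0.00135, without S487A replicate 2 it was -0.40 (0.278) and without S487A replicate 3 it was -0.37 (0.289). Over 15 alternatives the adjusted p ran from 0.00135 to 0.289. With a replicate block the adjusted p was 0.0361.

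The receptor genes of the urocortin and somatostatin loop that could be tested rose. Of 12 listed genes, 3 were tested and 3 were higher (median log2 change 0.81, or 0.37 without a filter and 1.18 with smaller pseudocounts or voom), and the untested ones reached at most 0.462 RPKM. Crhr1, a receptor for corticotropin-releasing hormone and urocortin 1, rose to 28.2 ± 1.56 RPKM in S487D, against 12.4 ± 1.15 in S487A (log2 change 1.12, SE 0.070, limma adjusted p = 2.11e-06). Sstr3, a somatostatin receptor, rose to 18.1 ± 0.264 RPKM in S487D, against 10.8 ± 0.731 in S487A (log2 change 0.70), and Sstr1 to 2.98 ± 0.191 RPKM in S487D, against 1.26 ± 0.0570 in S487A (log2 change 0.81). Crhr2, the receptor that urocortin 3 prefers, was listed at 0 in every library, as was Sst. Among genes named after their values were seen, Crh, Ucn2, Crhbp and Sstr4 were likewise listed at 0.

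Transcription factors known to act on member genes in beta cells went both ways. Of 16 tested, 4 were higher, 10 lower and 2 did not pass, with a median log2 change of -0.26. Mafa, an activator of insulin transcription, rose to 133 ± 10.7 RPKM in S487D, against 35.0 ± 1.01 in S487A. Nkx2-2, a homeodomain factor, rose to 20.5 ± 2.93 RPKM in S487D, against 13.3 ± 0.466 in S487A. Nkx6-1, another homeodomain factor, fell to 4.42 ± 0.434 RPKM in S487D, against 10.1 ± 0.531 in S487A (log2 change -1.03). Rfx6 and Rfx3 fell as well, with log2 changes of -1.11 and -0.75, Rfx3 in a row that overlaps another. Foxa2 and Creb1, named after their values were seen, did not pass.

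Slc2a2 moved against the genes around it. Of the 10 nearest tested genes on each side, which span 11.4 Mb, 0 were higher, 17 lower and 3 did not pass, with a median log2 change of -0.75. Pld1, Nlgn1, Gpr160 and Lrriq4, named after their values were seen, averaged below 1 RPKM in S487D and above it in S487A. They met the filter through S487A, which favours a lower call. The other neighbours averaged above 1 RPKM in both mutants, and most of these were also lower. Slc2a2 had the highest log2 change of the 21 genes that it forms with its neighbours. The next, LOC682402, named after its values were seen, was at 0.10. Tnik, a kinase gene and the nearest tested gene before it, fell to 1.84 ± 0.0953 RPKM in S487D, against 7.15 ± 0.0819 in S487A (log2 change -1.52). Eif5a2, a translation factor gene and the nearest after it, fell to 8.81 ± 0.315 RPKM in S487D, against 13.2 ± 0.152 in S487A (log2 change -0.54).

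Most lower neighbours of the KATP genes lay on one side, but the genes next to the pair did not follow that split. Of 20 tested neighbours of Kcnj11, Abcc8 included, 2 were higher, 11 lower and 7 did not pass (median log2 change -0.28), within 1.36 Mb. On the side of lower coordinates 2 of 10 were lower (median -0.02), and these were the 2 nearest to Kcnj11. On the other side 9 of 10 were lower, Abcc8 among them (median -0.55). Kcnj11 ranked 12 of 21 from the highest change, and Abcc8 ranked 13 of 21 among its own neighbours. Ncr3lg1, next to Kcnj11, was lower (1.72 ± 0.229 RPKM in S487D and 2.62 ± 0.372 in S487A, log2 change -0.41), a call lost after quantile normalization (adjusted p = 0.0543, the highest of 15 alternatives, the lowest being 0.00686). Kcnc1, a potassium channel gene next to Abcc8, was higher (log2 change 0.27, limma adjusted p = 0.0314), a call lost in 5 of 15 alternatives, among them without S487D replicate 1 or 3 or S487A replicate 2 or 3. None of the 6 member rows overlapped another row of the table, so their reads are not shared with an annotated overlapping gene.

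**Figure D4:**
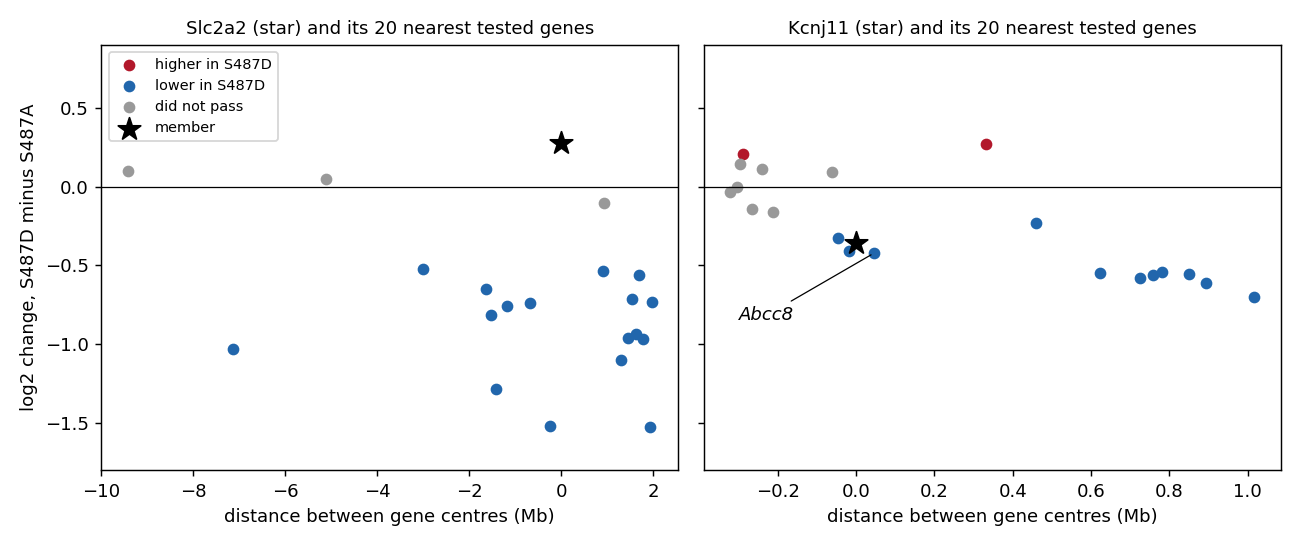
Log2 change, S487D minus S487A (vertical axis), against the distance between gene centres in Mb (horizontal axis) for Slc2a2 and Kcnj11 (stars) and the 20 nearest tested genes of each; red is higher in S487D, blue lower and grey did not pass. The Slc2a2 star lies above each of its neighbours. Kcnj11 lies beside Abcc8, with lower genes close by on both sides and most of them at higher coordinates.

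Calls around the low members went both ways, to be read beside 20.1% higher and 24.3% lower over all genes tested. Trpm4 lay among genes that were more often higher, with 10 of 20 neighbours higher and 4 lower (median log2 change 0.27), and its adjacent tested genes went opposite ways. Gfy fell to 0.971 ± 0.285 RPKM in S487D, against 13.01 ± 0.983 in S487A, and Ppfia3 rose to 14.8 ± 0.907 RPKM in S487D, against 11.5 ± 0.406 in S487A, each in a row that overlaps another. Gfy averaged below 1 RPKM in S487D and met the filter through S487A, which favours a lower call. The same held for Lhb near Trpm4 and Th near Trpm5, both counted as lower and named after their values were seen. Around Trpm5, 7 of 20 were higher and 3 lower; the adjacent Tssc4 rose (log2 change 0.36), and Kcnq1 did not pass (log2 change 0.25, limma adjusted p = 0.0847, range 0.0204 to 0.250 over 15 alternatives, with a call after quantile normalization or median centring). Around Ucn3, 2 of 20 were higher and 6 lower, and the adjacent Akr1c13 and Net1 were lower, with log2 changes of -0.47 and -0.42. The number of higher Ucn3 neighbours was 0 without a filter and 4 after median centring.

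The genes whose pattern over the 6 libraries lay nearest to the called members were on other chromosomes or far away. By Euclidean distance in log2(RPKM + 1) centred on each gene's mean, Lmo7 was nearest to Slc2a2 (distance 0.0326), Ppfibp1 to Abcc8 (0.0328) and Tacc2 to Kcnj11 (0.0357). These distances rest on 6 libraries in 2 groups. Lmo7 was higher (6.92 ± 0.116 RPKM in S487D and 5.54 ± 0.0523 in S487A), and Ppfibp1 and Tacc2, each in a row that overlaps another, were lower.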

How the data were processed

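The authors deposited RPKM for 35362 gene rows in 6 libraries, with position (rn6) and gene length, per the file headers. Per the labels' protocols, RNA was taken with Trizol and libraries came from a TruSeq RNA kit without strand marking. The submitters' processing notes name bcl2fastq 2.17 and cutadapt, then TopHat2 2.0.13; the read counter is not given in the sources used here, nor is the annotation. Since RPKM multiplied by length came in whole steps (at least 99.95% of a library's values lay within 0.05 of one), reads per gene could be worked out. Library pairs within a mutant differed by 1.36 to 1.88 times counting noise and were kept as replicates.

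The test took limma 3.58.1 (R 4.3.3; intensity trend, group as the only term, two-sided) to genes that reached 1 RPKM in 3 or more libraries, and was checked on simulated data. A gene that reached 1 RPKM in 1 mutant only could more easily be called lower in the other. Tables and figures used Python 3.11.15. The members and lists were chosen with earlier results of these data known. Named genes were the members and genes taken in any case (Slc2a1, Hk1, Hk2, G6pc3, Slc37a4, Kcnj8, Abcc9, Crhr1, Crhr2 and Sst). Up to 3 called genes per list and direction by p, the nearest pattern and the adjacent tested genes were also named. Men1 and the cell type markers stand outside this rule, and others are marked. Alternatives covered pseudocount, filter, scaling, trend, replicate block, voom and each library left out. A few genes that this rule takes are not reported here. A planned ratio with G6pc2 was not formed, since no row had that symbol.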

Additional observations from a re-analysis of the deposited data

How the results depend on the processing

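Pseudocounts of 0.1 and 0.01, quantile normalization, median centring, no filter or a filter at 5 RPKM, removal of the most read genes, no intensity trend, a replicate block, voom on recovered reads and each library left out were tried. Of 1360 values so obtained, 1268 kept their direction and their side of the threshold or, for counts and medians, stayed close to the value reported, the calls of Slc2a2, Kcnj11 and Abcc8 in each. Trpm4 and Ucn3 gave no value with the filter at 5 RPKM. Ucn3 passed with the replicate block (log2 change -0.551) and without S487A replicate 1; leaving out libraries gave -0.889 to -0.369 for it and 2 to 3 lower members. Same-numbered libraries did not deviate together (correlations -0.0599 to 0.00998), so the block pairs nothing the labels state. Of all genes, 22.4% were called without a filter, when 23180 were tested, in place of 44.4%. The median log2 change of all pathway genes was -0.259 in the main fit (54 tested, 10 higher and 32 lower) and -0.100 without a filter. The Slc2a2 neighbours' median was -0.960 and -0.988 with pseudocounts of 0.1 and 0.01, -0.670 after quantile normalization and -0.986 with voom. Of Kcnj11 neighbours, 1 was higher without a filter or with the filter at 5 RPKM (6 lower, median -0.133), 5 after median centring or removal of the most read genes, and 1 to 2 with libraries left out; the median was -0.216 after quantile normalization. The Trpm5 to Trpm4 log2 ratio difference was 0.656 with a pseudocount of 0.01, against 0.215. G6pc3 had positive changes of 0.00457 after quantile normalization, 0.0557 after median centring, 0.0216 without the most read genes, and -0.0284 to 0.0330 with libraries left out. The glucose entry list's median was 0.0158 after quantile normalization and 0.00931 after median centring. The cause of these shifts was not tested. Depth limits Ucn3, Trpm5 and the G6pc2 row.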
